A study of Mus musculus with 39 samples.

Results

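The testis transcriptomes of INSL3-KI and INSL3-KO mice were compared at postnatal day 8 (P8). The comparison took the 3 INSL3-KI and the 3 INSL3-KO testis libraries of that age, 6 of the 39 RNA-seq libraries of the series, and the 3 WT testis libraries of P8 were set beside them. All animals were C57BL/6J males. INSL3-KI mice were homozygous for a minke whale (Balaenoptera acutorostrata) INSL3 cDNA placed at the mouse Insl3 locus by homologous recombination in embryonic stem cells. The inserted cDNA was driven by the native mouse promoter, and the selection cassette had been removed with Cre. How the INSL3-KO allele was made is not given in the sources used here. Each group was a set of 3 libraries labelled as biological replicates, and the labels do not say whether a library came from 1 testis or from pooled organs. The INSL3-KI and WT libraries stand in a first deposited table of 27 libraries, and the INSL3-KO libraries in a second of 12. Table and genotype therefore cannot be told apart by this comparison alone. The tables were joined on the Ensembl identifier, which gave 21561 genes, from 22036 and 43339 Ensembl genes in them.

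INSL3 is a small peptide hormone of the relaxin family that Leydig cells secrete and that acts through the receptor RXFP2 on the gubernaculum, the cord that draws the testis down. Leydig cells, which lie between the seminiferous tubules, also make androgens from cholesterol with a chain of enzymes that begins with STAR and CYP11A1. The tubules of a mouse at this age hold immature Sertoli cells, spermatogonia and the first germ cells to enter meiosis, so that meiotic genes are switching on while spermatid genes are still near their floor.

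The inserted coding sequence differs from the mouse one along its whole length, which bears on how its reads are counted. In the study's deposited coding sequences, the mouse gene had 369 bases and the minke whale gene 402, and 267 of the 369 aligned bases were identical (72.4%). The longest run without a difference was 12 bases, against a read length of 150. The first and the last stretch of both are shown, with capitals for bases that differ or have no partner in the other species. Over the first stretch 71.1% of the aligned bases were identical, and over the last 78.7%.
Mouse Insl3, coding bases 1 to 135: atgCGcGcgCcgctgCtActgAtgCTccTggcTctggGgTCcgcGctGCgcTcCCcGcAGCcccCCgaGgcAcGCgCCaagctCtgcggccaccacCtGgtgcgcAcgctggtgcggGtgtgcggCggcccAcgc
Minke whale INSL3, coding bases 1 to 150: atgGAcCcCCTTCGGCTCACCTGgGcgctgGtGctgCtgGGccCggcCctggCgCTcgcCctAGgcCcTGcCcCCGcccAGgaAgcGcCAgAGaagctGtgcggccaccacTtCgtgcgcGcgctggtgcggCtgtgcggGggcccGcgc
Mouse Insl3, coding bases 262 to 369: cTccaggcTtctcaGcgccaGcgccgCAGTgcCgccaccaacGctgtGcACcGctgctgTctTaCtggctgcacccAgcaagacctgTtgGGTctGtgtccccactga
Minke whale INSL3, coding bases 283 to 402: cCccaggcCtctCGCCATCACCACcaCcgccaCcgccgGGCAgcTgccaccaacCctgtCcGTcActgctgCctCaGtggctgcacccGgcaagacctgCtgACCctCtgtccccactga

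The native promoter, which also drives the inserted cDNA, is given from RefSeq (GRCm38.p6), chr8:71689002-71689301 on the plus strand, from 250 bases before to 50 after the start. The last bases of this window are the start of the mouse coding sequence, which the INSL3-KI allele replaces. Capitals mark the letters AAGGTC or their reverse complement, the half-site that orphan nuclear receptors such as the steroidogenic factor NR5A1 read.
Insl3 promoter: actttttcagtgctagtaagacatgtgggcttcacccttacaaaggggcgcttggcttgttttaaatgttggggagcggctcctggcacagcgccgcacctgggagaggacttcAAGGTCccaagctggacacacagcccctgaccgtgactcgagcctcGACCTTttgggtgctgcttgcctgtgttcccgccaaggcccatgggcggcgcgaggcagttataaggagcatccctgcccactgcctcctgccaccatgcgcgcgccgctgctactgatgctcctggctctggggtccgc
The window held 2 matches, 1 on each strand. Of 32851 promoter windows of this length, 4026 (12.3%) held at least 1, and the windows of Hsd3b1, Cyp11a1 and Hsd17b3 held 0. A match describes the letters only.

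The 6 libraries held between 33000204 and 41518622 counts, and those of WT between 35014761 and 39398483, of which the shared genes took 95.8% to 97.9%. The 3 INSL3-KO libraries resembled one another more than the others did. The biological coefficient of variation, the spread between libraries beyond counting error, was 0.0789 in INSL3-KO, 0.235 in WT and 0.326 in INSL3-KI. INSL3-KI replicate 2 stood apart. Without it the coefficient was 0.137, and its log-scale correlation with the other INSL3-KI libraries was 0.951 and 0.962, against 0.991 between those. In it 324 genes lay over 4-fold above the mean of the other INSL3-KI libraries and 31 as far below. By the same measure 1 gene lay above and 181 below in replicate 1, and 52 above and 184 below in replicate 3, with replicate 2 then part of the mean. The genes that led were those of later germ cells. Ldhc, the sperm-type lactate dehydrogenase, stood at 383 CPM (counts put on a shared library scale) there, against 3.14 and 1.56. Piwil1, which binds pachytene piRNAs, stood at 419 CPM against 10.01 and 7.84. The library is used as labelled, and whether its age or its label departs from those of the others was not tested. Results that rest on it are given with and without it.

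Insl3 itself (ENSMUSG00000079019) was lower in the INSL3-KI than the INSL3-KO testis of P8, and it was far below WT in both. The INSL3-KI libraries had 33, 15 and 26 counts, the INSL3-KO libraries 906, 804 and 613, and the WT libraries 2922, 3524 and 2722. In CPM, scaled over the 9 libraries, these were 0.925, 0.474 and 0.677 in INSL3-KI and 22.1, 22.3 and 16.9 in INSL3-KO. WT stood at 90.0, 97.0 and 75.8 CPM. The 3 groups did not overlap, and their means put INSL3-KI at 0.790% and INSL3-KO at 23.3% of WT. The log2 difference of INSL3-KI from INSL3-KO was -4.87 (SE 0.29), with an adjusted p of 0.000204 in edgeR's quasi-likelihood test. Without INSL3-KI replicate 2 it was -4.67. The INSL3-KO libraries thus carried less Insl3 than WT but not none, and the labels are used as given.

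These are counts of reads assigned to the mouse gene. The species were compared over coding bases only, 369 of the 623 exonic bases of the mouse gene, and whether the INSL3-KI transcript keeps untranslated mouse bases, whose reads would be counted, was not tested. At P23 the order of the mutants was the other way round. INSL3-KI testis then had 52, 66 and 84 Insl3 counts and INSL3-KO testis 0, 5 and 0, against 20844 to 25238 in WT. The fitted log2 difference of INSL3-KI from INSL3-KO at P23 was 5.45, a value that depends on the prior count because INSL3-KO was near 0. In P8 gubernaculum, which the same second table holds, the INSL3-KO libraries had 0 Insl3 counts, as had the INSL3-KI libraries. The gene lies at chr8:71689214-71690575 on the plus strand (GRCm38) inside the 3′ end of Jak3, a cytokine receptor kinase read on the same strand. Of its exonic bases, 404 lie within Jak3 exons, so that reads of the shared bases cannot be assigned to one gene by position alone. Jak3 did not pass the test, with 4.57, 3.22 and 4.27 CPM in INSL3-KI and 2.34, 3.49 and 3.82 in INSL3-KO (log2 0.32, SE 0.27, adjusted p = 0.401). The receptor gene Rxfp2 was at the edge of detection, with 3, 19 and 0 counts in INSL3-KI, 9, 31 and 25 in INSL3-KO, and 14, 46 and 76 in WT.

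Over all genes, 15728 were tested, of which 183 (1.16%) were lower and 434 (2.76%) higher in INSL3-KI once the adjusted p had to be under 0.01 and the change 2-fold or more. The median log2 difference was 0.00. The calls were few beside the broad difference between the groups, which are also the 2 tables. In edgeR's test 7013 genes had an unadjusted p under 0.05. Without the fold threshold 1227 (7.8%) were lower and 1393 (8.86%) higher. In 8224 genes (52.3%) the groups did not overlap. Without INSL3-KI replicate 2, 144 of the 183 and 376 of the 434 were called again. Leaving out any 1 INSL3-KO library left 62 to 78 lower and 234 to 252 higher genes, and leaving out INSL3-KI replicate 3 gave 301 lower ones. WT was the nearer to INSL3-KI for 330 of 426 higher genes that all fits held, for 94 of 168 lower genes and for 7026 of 14755 genes not called. WT shares its table with INSL3-KI. Against WT, INSL3-KO was called the opposite way for 69 of the lower and 259 of the higher genes, and INSL3-KI the same way for 13 and 32. In all, INSL3-KI was called lower than WT for 3.25% and higher for 3.03% of genes, and INSL3-KO for 8.37% and 5.44%.

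Of the 20 genes listed as Leydig cell and steroidogenic genes, 19 were tested. Lower were 2, Insl3 and Cyp17a1, and none was higher, beside 1.16% and 2.76% of all genes. Insl3 is the gene whose coding sequence the INSL3-KI allele replaces, so its call does not measure Leydig cells. It stays in the medians and sums below. The median log2 difference of the 19 was -0.42, against 0.00 over all genes tested, and it was -0.36 without INSL3-KI replicate 2. Without that library the same 2 genes were lower and Lhcgr, the luteinizing hormone receptor, was called higher (log2 1.10, adjusted p = 0.000125 in edgeR), beside 1.45% lower and 3.24% higher of all genes. With each library's trend with transcript length and GC content removed, 1 gene was lower, the replaced Insl3. When the genes were also limited to the 13 whose transcript length, as counts and FPKM imply it, was the same in both tables, the median was -0.15. The summed level of the list was 977 to 986 CPM in INSL3-KI, 1299 to 1345 in INSL3-KO and 1704 to 1951 in WT. The 3 groups lay in that order without overlap. In bulk tissue, fewer Leydig cells and less RNA per Leydig cell cannot be told apart.

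Cyp17a1 makes the enzyme that turns progestins into androgen precursors. It stood at 9.84, 33.8 and 12.0 CPM in INSL3-KI, 138, 136 and 125 in INSL3-KO, and 130, 142 and 158 in WT. The INSL3-KO and WT libraries overlapped, and all INSL3-KI libraries lay below both. The log2 difference was -2.84 (SE 0.47, adjusted p = 0.00531), and without INSL3-KI replicate 2, the highest of its group, it was -3.60. As a share of the WT mean, INSL3-KI stood at 13.0% and INSL3-KO at 92.9%. Within the first table alone, INSL3-KI against WT gave -2.95 (adjusted p = 0.0073). Across the tables at P23, INSL3-KI against WT gave -1.91, and by the check described with the gene models Cyp17a1 moved with the table. With the length and GC trend removed the adjusted p was 0.0102, and with the same implied length as well it was 0.017, both above the threshold of 0.01. The call was lost when any INSL3-KO library or INSL3-KI replicate 1 or 3 was left out, with adjusted p values from 0.0146 to 0.0293 and the direction kept.

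Of the genes at the start of the pathway, Star passed the adjusted p threshold but not that of 2-fold, and Cyp11a1 and Hsd3b1 passed neither. Star, which brings cholesterol into the mitochondrion, stood at 22.1, 29.6 and 26.2 CPM in INSL3-KI, 47.3, 46.4 and 49.1 in INSL3-KO, and 59.8, 106 and 79.0 in WT. Its log2 difference was -0.87 (adjusted p = 0.00249). Cyp11a1, the side-chain cleavage enzyme, stood at 37.7, 58.0 and 71.3 CPM in INSL3-KI and 102, 108 and 102 in INSL3-KO (log2 -0.90, adjusted p = 0.0206). Both genes had every INSL3-KI library below every INSL3-KO library, and every INSL3-KO library below every WT library. Hsd3b1, the next enzyme, had 143, 85.1 and 121 CPM in INSL3-KI and 215, 217 and 211 in INSL3-KO (log2 -0.88, adjusted p = 0.0108). INSL3-KO was within the WT range of 197 to 256 CPM there.

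Hsd17b3, which makes testosterone from androstenedione, was low in both mutants. It had 16.4, 8.28 and 12.0 CPM in INSL3-KI, 25.4, 27.8 and 28.0 in INSL3-KO, and 100 to 133 in WT, and the difference between the mutants was -1.15 (adjusted p = 0.0125). Cyb5a, the cytochrome that aids CYP17A1, had 52.2 to 58.4 CPM in INSL3-KI and 91.9 to 105 in INSL3-KO (log2 -0.84, adjusted p = 0.00081), with WT at 54.8 to 64.7. For this gene it was INSL3-KO that stood above the other groups.

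The receptor and the transcription factor of the pathway did not pass the test with all libraries. Lhcgr had 30.9, 18.2 and 25.8 CPM in INSL3-KI, 13.3, 11.1 and 15.3 in INSL3-KO, and 28.5 to 29.9 in WT (log2 0.92, adjusted p = 0.021). The 2 tables imply different transcript lengths for it, the second 0.39 of the first. Nr5a1, the transcription factor of steroidogenic cells, had 167 to 197 CPM in INSL3-KI and 149 to 157 in INSL3-KO (log2 0.25, adjusted p = 0.0401), below the 259 to 352 of WT. Hsd3b6, the form of the mature Leydig cell, had 4.20, 41.2 and 5.55 CPM in INSL3-KI and 3.04 to 3.93 in INSL3-KO, so that replicate 2 alone set the INSL3-KI mean. Scarb1, which takes up lipoprotein cholesterol, overlapped between the groups (226 to 246 and 241 to 251 CPM).

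**Figure D1:**
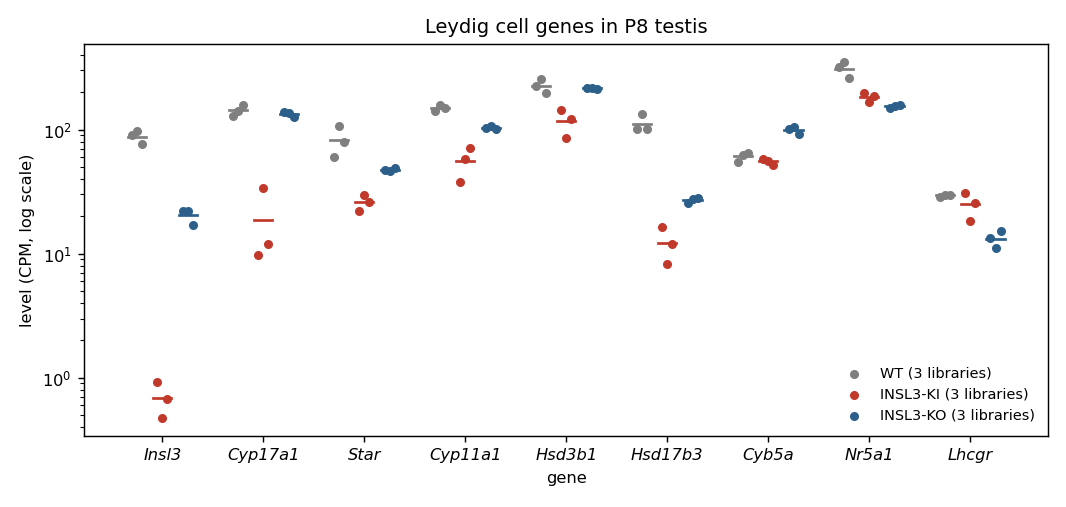
Level of 9 Leydig cell genes (CPM, log axis) in the P8 testis libraries of WT (grey), INSL3-KI (red) and INSL3-KO (blue). Each point is 1 library and each bar the mean of 3. The INSL3-KI points of Insl3, between 0.474 and 0.925 CPM, lie far below the INSL3-KO points, between 16.9 and 22.3, and those of Cyp17a1, Star and Cyp11a1 also lie below all INSL3-KO points, while those of Lhcgr lie above.

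The differences between the mutants varied with transcript length. Genes whose longest transcript had at most 800 bases (390 genes, GENCODE M21) had a median log2 difference of -0.63, and those over 6000 bases (2203 genes) one of 0.36. The medians rose through the bins between, from -0.29 to -0.06 and 0.14. Within the first table the same bins spanned only -0.14 to 0.08 for INSL3-KI against WT, whereas INSL3-KO against WT across the tables spanned 0.49 to -0.32. The other comparisons across the tables had the same slope, from -0.87 to 0.34 for INSL3-KI against INSL3-KO in P8 gubernaculum and from -0.35 to 0.52 for INSL3-KI against WT in P23 testis. Calls followed length too. Of the shortest genes 10.5% were called lower, and of the longest 8.49% higher. The median longest transcript was 1477 bases for the lower genes, 3288 for those not called and 5569 for the higher ones. The share of this slope that belongs to genotype cannot be told apart from that of the table.

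**Figure D2:**
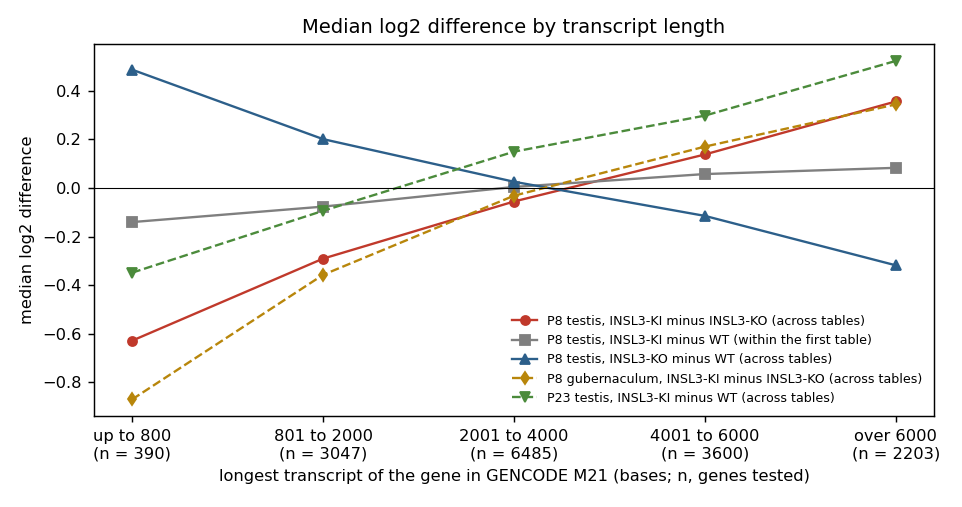
Median log2 difference of all tested genes (y) in 5 bins of the longest annotated transcript (x, bases, with n genes). The 4 comparisons that cross the tables slope strongly, with INSL3-KI minus INSL3-KO in P8 testis going from -0.63 to 0.36, and the comparison within the first table, INSL3-KI minus WT in P8 testis, spans only -0.14 to 0.08.

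The gene models also differed between the tables. A gene's counts and FPKM values imply the transcript length used, and this agreed within 5% between the tables for 12802 of 17529 genes. It was the same for 61.0% of the lower genes, 42.7% of the higher genes and 73.4% of the genes not called. In 204 of the 415 higher genes with a known length, the second table implied a shorter transcript. As a check of the table, P23 testis of WT, which stands in the second table, was set against P23 testis of INSL3-KI in the first. Of the genes called at P8, 57 lower (31.1%) and 212 higher (48.8%) were called there in the direction of the table, and they are named as moving with the table. Over all 16603 genes tested at P23, 11.8% were called lower and 8.81% higher in the first table. Insl3 was among the lower genes so marked, with -8.95 at P23. Such a gene can also differ by genotype, since the first table holds INSL3-KI at both ages. The sign of the P23 difference was that of the table for 133 of 174 lower and 349 of 423 higher genes. In 16 lower and 73 higher genes, all 12 libraries of the second table lay beyond all 27 of the first, which was so for 130 of all shared genes.

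**Figure D3:**
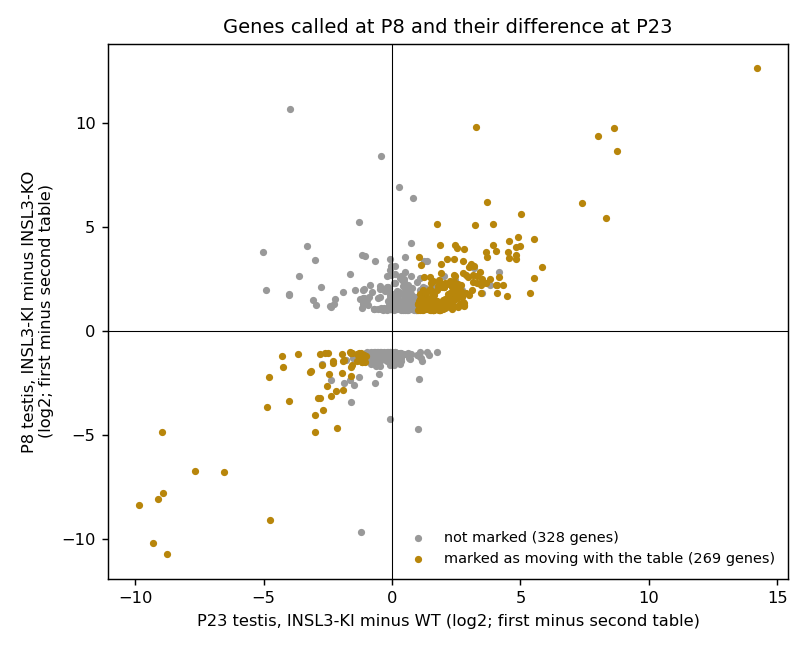
Genes called at P8: log2 difference of INSL3-KI from WT in P23 testis (x) and of INSL3-KI from INSL3-KO in P8 testis (y), both the first table minus the second. The 269 genes that move with the table (gold) lie in the lower left and upper right corners by definition, and the other 328 (grey) hold no such mark. The remaining called genes were not in the P23 fit.

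With only genes of the same implied length, and each library's trend with length and GC content removed, 12 of 11320 genes (0.106%) were lower and 29 (0.256%) higher. Of these, 11 and 26 were among the 183 and 434 called before. Without INSL3-KI replicate 2 the same fit called 44 and 98. These genes were chosen after their values were seen. The lower ones were Insl3, Pcp4, Cd52, Hvcn1, Slc24a5, Mrps25, Usmg5, Pigb, Ost4, Cox6c, Cuta and Snrnp48. Insl3 kept a log2 difference of -4.83 in that fit (adjusted p = 0.0021). Slc24a5, a potassium-dependent sodium and calcium exchanger known from pigment cells, had 8.55, 5.62 and 6.35 CPM in INSL3-KI, 34.4, 34.2 and 34.2 in INSL3-KO, and 28.4, 31.3 and 23.5 in WT. Its log2 difference was -2.32 (SE 0.17, adjusted p = 0.000389), and INSL3-KI against WT within the first table gave -2.01 (adjusted p = 0.0039). Like Insl3 and Cyp17a1 it was thus low in INSL3-KI beside both other groups.

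In other lower genes of that fit it was INSL3-KO that stood out. Cd52, which encodes a small glycoprotein of lymphocytes and of the epididymis, had 0.561, 0.663 and 1.17 CPM in INSL3-KI, 15.2, 17.4 and 12.4 in INSL3-KO, and 0.524, 0.688 and 3.59 in WT (log2 -4.22, adjusted p = 0.000509). Pcp4, a calmodulin-binding protein, had 7, 6 and 11 counts in INSL3-KI, 213, 226 and 204 in INSL3-KO, and 0, 11 and 83 in WT (log2 -4.64, adjusted p = 0.000224). The WT libraries spread widely for both genes. Cox6c, a subunit of cytochrome oxidase, had 54.6 to 65.6 CPM in INSL3-KI and 128 to 139 in INSL3-KO, with WT at 57.6 to 79.0 (log2 -1.15).

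The 29 higher genes of that fit included chromatin, membrane and germ cell genes. Kmt2d, a histone H3 lysine methyltransferase, had 207, 194 and 215 CPM in INSL3-KI, 43.1, 45.4 and 48.6 in INSL3-KO, and 178, 151 and 116 in WT (log2 2.17, adjusted p = 4.19e-05). Its longest transcript had 19823 bases, and with the trend removed the difference was 1.04. Atp13a1, a transporter of the endoplasmic reticulum, had 101 to 119 CPM in INSL3-KI, 19.0 to 21.8 in INSL3-KO and 89.2 to 106 in WT (log2 2.37). Both moved with the table. Ccnb3, a cyclin of early meiosis, had 48.6, 41.4 and 41.4 CPM in INSL3-KI, 20.1, 25.1 and 22.5 in INSL3-KO, and 4.19, 1.32 and 0.779 in WT. It lay 0.96 above INSL3-KO in INSL3-KI, and both mutants lay above WT.

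Genes named by size, with groups that did not overlap and no mark of the table, were taken from all calls. The 12 lower ones, from a pool of 83, were Acta1, Cd52, Ece2, Slc24a5, Rpl39, S100a11, Sh3bp1, Ndufc2, Rhox8, Cox7b, Pagr1a and Tmem256. Acta1, skeletal muscle actin, had 0.448, 0.253 and 1.72 CPM in INSL3-KI, 23.3, 20.2 and 21.2 in INSL3-KO, and 0.370, 0.853 and 8.10 in WT (log2 -4.71, SE 0.67, adjusted p = 0.00305). Rhox8, a homeobox gene of Sertoli cells, had 80.7, 56.7 and 86.3 CPM in INSL3-KI, 214, 209 and 247 in INSL3-KO, and 106 to 154 in WT (log2 -1.58, adjusted p = 0.00103). With the trend removed, Rhox8 stood at -1.11 and no longer passed. Nor did Rpl39 (log2 -0.95), S100a11 (-0.93), Ndufc2 (-0.98), Cox7b (-0.76) and Tmem256 (-1.02). In P8 gubernaculum, whose mutants also stand in different tables, INSL3-KO was called above INSL3-KI for Acta1, Ece2, Rpl39, S100a11, Ndufc2, Cox7b and Tmem256. The log2 excess there ran from 1.00 (Rpl39) to 2.87 (Ece2), and the others were not called. Of all 15642 genes tested in that tissue, 1650 were called with INSL3-KO above INSL3-KI. That comparison cannot tell table from genotype. Ndufc2, a subunit of respiratory complex I, had 31.4 to 34.5 CPM in INSL3-KI, 91.7 to 106 in INSL3-KO and 46.2 to 50.9 in WT (log2 -1.60, adjusted p = 0.00015). Ece2 and Pagr1a had different gene models, with implied lengths in the second table of 0.42 and 3.17 times those in the first. For Pagr1a, a partner of histone methyltransferases, the difference on log2(FPKM + 1) turned from -1.46 to 0.25. The calls of Acta1, Rpl39, S100a11 and Sh3bp1 were lost when INSL3-KI replicate 1 or any INSL3-KO library was left out, with adjusted p values for Acta1 from 0.0137 to 0.0206 and for Sh3bp1 up to 0.0279. Those of Cox7b were lost without any 1 INSL3-KO library (up to 0.0134), and of Tmem256 without INSL3-KO replicate 2 or 3 (up to 0.0112).

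The 12 higher ones, from a pool of 135, included Klf12, Cep85l, Ttbk1, Lrrc8b, Dyrk2, Tnrc18, Snx29, Syne3, Nr2c2, Rufy3 and Plekhn1. Klf12, a zinc-finger repressor, had 21.02, 19.9 and 19.5 CPM in INSL3-KI, 0.659, 1.27 and 1.26 in INSL3-KO, and 20.7, 21.7 and 20.8 in WT (log2 4.24, SE 0.29, adjusted p = 0.000296). Lrrc8b, a subunit of volume-regulated anion channels, had 66.3 to 75.2 CPM in INSL3-KI, 6.12 to 7.62 in INSL3-KO and 72.4 to 81.4 in WT (log2 3.42). In both genes INSL3-KI and WT overlapped and INSL3-KO was low. For Klf12, Lrrc8b and Dyrk2 the second table implied 0.33, 0.43 and 0.35 of the length in the first. Snx29, a sorting nexin with the same implied length in both tables, had 11.4, 12.3 and 11.3 CPM in INSL3-KI, 1.90, 2.24 and 1.46 in INSL3-KO, and 8.91 to 12.7 in WT (log2 2.64, adjusted p = 0.000527). Nr2c2, an orphan nuclear receptor of germ cells, had 124, 169 and 97.3 CPM in INSL3-KI, 20.6, 12.4 and 34.0 in INSL3-KO, and 75.5 to 91.4 in WT (log2 2.54, adjusted p = 0.00418). Its call was lost without INSL3-KI replicate 1 or INSL3-KO replicate 1 or 2 (adjusted p up to 0.0295), and that of Ttbk1 without INSL3-KI replicate 1 or any INSL3-KO library (up to 0.0506). With the trend removed, Nr2c2 and Ttbk1 were not called. In P8 gubernaculum, again across the tables, each of the genes listed was called with INSL3-KI above INSL3-KO. So were 1865 of all 15642 genes tested in that tissue.

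Among genes that moved with the table, the changes were larger still. Nupl1, a nucleoporin gene, had 0.280, 0 and 0.469 CPM in INSL3-KI and 84.4 to 89.6 in INSL3-KO, with WT at 0 to 0.339. Ptp4a1, a phosphatase gene, had 0.130 to 1.99 CPM in INSL3-KI and 102 to 137 in INSL3-KO, with WT at 0.277 to 2.98. Fgf2, a growth factor of spermatogonia, had 32.3, 17.8 and 33.9 CPM in INSL3-KI, 0.471 to 0.687 in INSL3-KO and 27.7 to 42.5 in WT, and its second implied length was 0.14 of the first. In these 3 genes INSL3-KI and WT, which share a table, overlapped. The other genes named under that rule were Insl3 and Fam221b, lower, and Prrt2, Ccdc85c and Zfp626, higher, of which Prrt2 lost its call without INSL3-KO replicate 3 (adjusted p = 0.014).

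The germ cell lists held almost no calls. Among 29 tested genes of the synaptonemal complex and of recombination, 0 were called, with a median log2 difference of 0.34 that was -0.05 without INSL3-KI replicate 2. Without the fold threshold, 1 was lower and 1 higher, beside 7.8% and 8.86% of all genes. Both mutants stood above WT in this list: 23 of the 29 were called higher in INSL3-KI and 26 in INSL3-KO, beside the 3.03% and 5.44% of all genes. The summed level was 1957 to 3518 CPM in INSL3-KI, 2237 to 2272 in INSL3-KO and 337 to 702 in WT. Sycp3, a lateral element protein, had 171, 306 and 130 CPM in INSL3-KI, 209 to 210 in INSL3-KO and 10.2 to 27.01 in WT. Dmc1, the meiotic recombinase, had 86.2, 90.3 and 73.4 CPM in INSL3-KI, 70.9 to 72.4 in INSL3-KO and 9.63 to 15.7 in WT. The mutants' ranges overlapped for Sycp3 but not for Dmc1, whose difference was 0.21 (adjusted p = 0.115).

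Genes of meiotic entry held no call either. Of 18 tested genes of spermatogonial differentiation and meiotic entry 0 were called, with a median of 0.03. Stra8, which starts meiosis in answer to retinoic acid, had 180, 126 and 133 CPM in INSL3-KI and 213 to 222 in INSL3-KO (log2 -0.57, adjusted p = 0.0197), with 39.0 to 105 in WT. Of 22 stem cell genes 0 were called at 2-fold. Their median was -0.19, with 13 of them below 0, and it was -0.002 without INSL3-KI replicate 2. Without the fold threshold 3 were higher and 0 lower, beside 8.86% and 7.8% of all genes. One of the 3, Zbtb16, the PLZF factor of undifferentiated spermatogonia, had 44.5 to 56.9 CPM in INSL3-KI and 27.3 to 31.2 in INSL3-KO (log2 0.78, adjusted p = 0.00326). Of 23 germ cell and piRNA genes 0 were called. Their median fell from 0.43 to -0.09 without INSL3-KI replicate 2.

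Of 18 tested spermatocyte and spermatid genes 2 were higher, beside 2.76% of all genes, and none with the trend removed. The 2 were Tssk1 and Gapdhs. Both were at a low level, 1.23 to 1.64 against 0.221 to 0.439 CPM for Tssk1, a kinase of spermatids, and 1.54 to 1.96 against 0.277 to 0.537 CPM for Gapdhs, the sperm glycolytic isozyme. Both calls were lost when any library but INSL3-KI replicate 2 was left out (adjusted p from 0.016 to 0.0354). The list's summed level was 2007 CPM in INSL3-KI replicate 2 and 213 and 253 in the other INSL3-KI libraries, beside 189 to 204 in INSL3-KO and 151 to 160 in WT. Its median of 1.13 was 0.30 without that library.

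**Figure D4:**
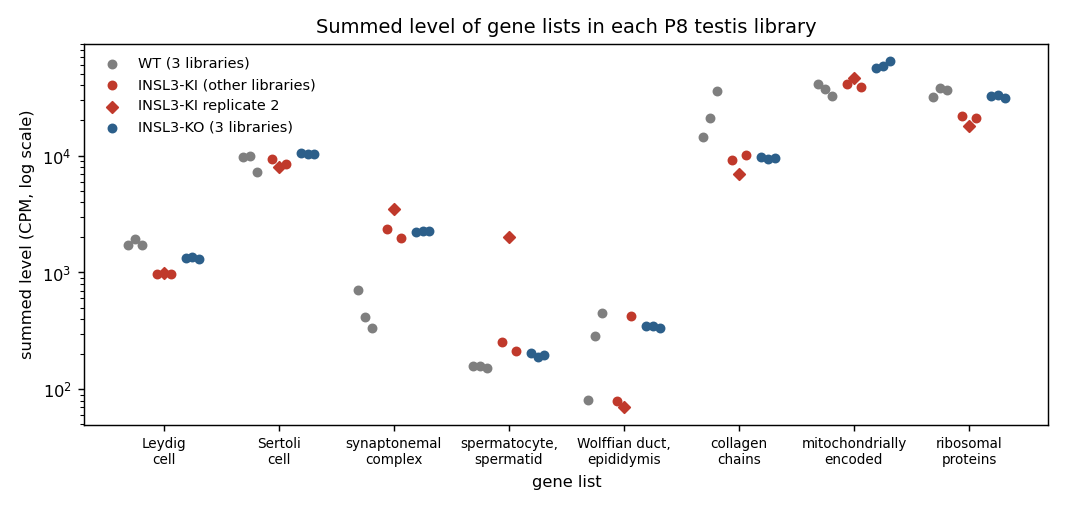
Summed level (CPM, log axis) of 8 gene lists in each P8 testis library: WT grey, INSL3-KI red, INSL3-KO blue, with INSL3-KI replicate 2 as a diamond. The Leydig cell sums fall from WT to INSL3-KO to INSL3-KI, the synaptonemal sums of both mutants lie above WT, and the diamond stands at 2007 CPM in spermatocyte and spermatid genes while every other library lies at 253 or below.

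Of 28 Sertoli cell genes 1 was lower, beside 1.16% of all genes. It was the defensin Defb36, with 24.7 to 28.7 CPM in INSL3-KI and 57.1 to 62.9 in INSL3-KO. The median was -0.20, and it was -0.10 without INSL3-KI replicate 2. With the trend removed, no gene of the list was called. Amh, the hormone of immature Sertoli cells, had 198, 109 and 193 CPM in INSL3-KI, 178 to 180 in INSL3-KO and 610 to 913 in WT. The mutants did not differ beyond their spread (log2 -0.10, adjusted p = 0.742), and both lay below WT. Sox9, the Sertoli factor, had 157 to 227 CPM in INSL3-KI and 225 to 232 in INSL3-KO. Of 20 junction genes of the blood-testis barrier 1 was higher, beside 2.76% of all genes. It was Espn, which bundles actin at Sertoli cell junctions (169 to 237 against 87.7 to 95.0 CPM), and it moved with the table. Its log2 difference was 0.93, short of 2-fold, without INSL3-KI replicate 2, and its adjusted p rose to 0.0173 at most without an INSL3-KO library. Espn was not called with the trend removed.

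Of 15 genes of interstitial stroma and Leydig progenitors 0 were called lower, with a median of -0.29 that was -0.07 without INSL3-KI replicate 2. Igf1, the growth factor that the stroma supplies, had 110 to 145 CPM in INSL3-KI, 192 to 214 in INSL3-KO and 263 to 428 in WT (log2 -0.68, adjusted p = 0.00544). Of 17 relaxin, insulin and IGF family genes, Insl3, the replaced gene itself, fell and Igf1r, the receptor of IGF1, was higher. Of all genes 1.16% were called lower and 2.76% higher. Igf1r had 104 to 131 CPM in INSL3-KI, 28.2 to 33.4 in INSL3-KO and 149 to 155 in WT (log2 1.95, adjusted p = 0.000195). It moved with the table, with an implied length of 0.40 in the second. Of 15 peritubular and smooth muscle genes 1 was lower, beside 1.16% of all genes. It was Actg2, enteric smooth muscle actin (log2 -1.20), which moved with the table. It lost its call with the trend removed, and also without INSL3-KI replicate 1 or any INSL3-KO library (adjusted p up to 0.0409).

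The collagen sums of both mutants lay below those of WT, at 6937 to 10149 CPM in INSL3-KI, 9333 to 9653 in INSL3-KO and 14499 to 35728 in WT. Against WT, 2 of the 30 chains were called lower for INSL3-KI and 16 for INSL3-KO, beside the 3.25% and 8.37% of all genes. The median log2 differences of the chains from WT were alike, -1.43 for INSL3-KI and -1.41 for INSL3-KO. None of the 30 chains was called between the mutants by edgeR at 2-fold, and 2 were higher without that threshold, beside 8.86% of all genes. Without INSL3-KI replicate 2, 1 was called higher, beside 3.24% of all genes. Of 16 endothelial genes 0 were called. Cdh5, the cadherin of endothelial cells, had 48.5 to 74.3 CPM in INSL3-KI, 57.3 to 61.9 in INSL3-KO and 136 to 192 in WT. Of 16 Hedgehog pathway genes 0 were called, with a median of 0.20. Dhh, the ligand that Sertoli cells send to Leydig progenitors, had 139 to 194 CPM in INSL3-KI, 134 to 135 in INSL3-KO and 221 to 319 in WT, and its target Ptch1 had 171 to 262 and 158 to 164 CPM in the mutants.

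Genes listed for tissues around the testis differed in level between libraries. Whether such tissue was carried along with the testis was not tested. The summed level of 17 Wolffian duct and epididymal genes, 11 of them tested, was 70.1 to 421 CPM in INSL3-KI, 332 to 350 in INSL3-KO and 80.6 to 448 in WT. Crisp1, an epididymal secretory protein, had 0.112, 0.347 and 103 CPM in INSL3-KI, 104 to 112 in INSL3-KO and 0, 36.0 and 49.7 in WT, so that INSL3-KI replicate 3 stood with INSL3-KO. The 8 mesothelial genes tested had the lowest median of the lists without a call, -1.28, and the 11 adipocyte genes the highest, 1.47. Without INSL3-KI replicate 2 both lists held calls. Then 6 of the 11 adipocyte genes were higher, beside 3.24% of all genes, with a list median of 1.79. Among them were the adipokine gene Adipoq (log2 2.45) and the fatty acid carrier Fabp4 (2.69). Of the 8 mesothelial genes 2 were lower, Upk3b (-1.83) and Gpm6a (-1.49), with a median of -1.05, beside 1.45% of all genes called lower. The adipocyte sum was 71.7 to 269 CPM in INSL3-KI, 135 to 139 in INSL3-KO and 328 to 1427 in WT. The part of such tissue in the other differences was not tested.

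Of the 40 lists 22 held no call. Beside those above they were the lists of macrophages (median -0.20, 18 genes), neutrophils and lymphocytes (-0.68, 10), erythroid cells (-0.58, 6), Schwann cells and nerve (-0.42, 12), retinoic acid (-0.22, 23), cold-inducible RNA-binding proteins (-0.17, 2), immediate early genes (-0.09, 23), chemokines and receptors (-0.63, 22), cell cycle (-0.13, 31), BCL2 and p53 genes (0.06, 26), hormone receptors (0.12, 14) and genes that vary between inbred strains (-0.02, 5). Without INSL3-KI replicate 2, 10 of the 22 lists held a call, 8 of them 1 call each. The medians then moved both ways. They became -0.18 for Schwann cells and nerve and -0.38 for erythroid cells, but -0.34 for macrophages and -0.91 for neutrophils and lymphocytes. Defining immune genes were low but present: Ptprc, which encodes CD45, had 2.27 to 2.83 CPM in INSL3-KI and 2.52 to 4.29 in INSL3-KO. Cyp26b1, which breaks down retinoic acid, had 307 to 363 CPM in INSL3-KI and 242 to 255 in INSL3-KO (log2 0.48, adjusted p = 0.00509).

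The remaining lists with calls held 1 or 2 each, where 1.16% of all genes tested were called lower and 2.76% higher. Of 25 heat shock genes the mitochondrial cochaperonin Hspe1 was lower (45.0 to 60.4 against 121 to 147 CPM), and none was called with the trend removed. Without the fold threshold 5 were lower in all, beside 7.8% of all genes. Of 29 interferon and MHC class I genes B2m, the light chain of class I molecules, was lower (73.0 to 89.6 against 164 to 168 CPM, log2 -1.05), and with the trend removed it stood at -0.28. It stood at -0.99, short of 2-fold, without INSL3-KI replicate 1. Of 36 cyclic AMP genes Adcy9, an adenylyl cyclase, was higher (28.9 to 30.1 against 6.12 to 9.22 CPM). Prkar2b, a regulatory subunit of protein kinase A, was lower (92.7 to 116 against 213 to 222 CPM, log2 -1.03), with WT at 272 to 288. It fell short of 2-fold without INSL3-KI replicate 2 (log2 -0.94) or INSL3-KO replicate 3, and it was not called with the trend removed. Of 39 TGF-beta, activin and BMP genes Inhba, the activin chain, and Acvr2b, an activin receptor, were higher. Inhba had 7.61 to 15.1 CPM in INSL3-KI, 1.08 to 1.85 in INSL3-KO and 49.6 to 69.3 in WT, so that both mutants lay below WT. Its call was lost without INSL3-KO replicate 2 or 3 (adjusted p up to 0.0127), and that of Acvr2b without INSL3-KI replicate 1 or any INSL3-KO library (up to 0.0186).

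Of 29 Notch genes the receptor Notch3 and the ligand Jag2 were higher (log2 1.32 and 1.05). Of 23 cholesterol synthesis genes Tm7sf2, a sterol reductase, was higher (65.6 to 76.4 against 7.72 to 8.55 CPM), with an implied length of 0.68. Of 21 complement genes Masp1 was higher (20.5 to 25.5 against 3.38 to 4.37 CPM) and the regulator Cd55 lower. Of 13 skeletal muscle genes Acta1 was lower and the myosin Myh1 higher, and of 20 histone genes Hist2h3b was higher from counts of 1 to 2 in INSL3-KO. Adcy9, Inhba, Acvr2b, Notch3, Jag2, Tm7sf2, Masp1, Cd55 and Myh1 moved with the table. With the trend removed, Notch3, Jag2, Cd55, Myh1 and Hist2h3b were not called. The call of Notch3 was lost without INSL3-KI replicate 1 or any INSL3-KO library (adjusted p up to 0.0399), that of Myh1 without any library but INSL3-KI replicate 2 (up to 0.0404), that of Cd55 without any but INSL3-KI replicate 3 (up to 0.038) and that of Hist2h3b without any 1 library (up to 0.0402).

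The list with the most calls was that of cytosolic ribosomal proteins. Of its 83 genes, a list added after the values were seen, 18 were lower, beside 1.16% of all genes. Without the fold threshold 65 were lower, beside 7.8% of all genes. Of the 18, 3 moved with the table, and 12 genes of the list were lower without INSL3-KI replicate 2, beside 1.45% of all genes. The median was -0.73. The sums were 17823 to 22053 CPM in INSL3-KI, 30931 to 33226 in INSL3-KO and 31863 to 37998 in WT. Within the first table the median against WT was -0.78, and that of INSL3-KO against WT across the tables was -0.05. Rpl39, a small protein of the large subunit, had 22.3, 14.7 and 25.99 CPM in INSL3-KI and 60.3, 76.1 and 59.3 in INSL3-KO, with WT at 36.6 to 71.5. Its call was lost without INSL3-KI replicate 1 or any INSL3-KO library (adjusted p up to 0.0177). With the trend removed, the list's median was -0.40, and no member was called with the same implied length and the trend removed.

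Of 13 genes encoded in the mitochondrion 1 was lower, beside 1.16% of all genes. It was mt-Nd6, a subunit of complex I and the one read from the light strand. It had 738, 866 and 725 CPM in INSL3-KI, 1588.5, 1781 and 2065 in INSL3-KO, and 580 to 754 in WT. Its log2 difference of -1.22 was -0.15 with the trend removed. Without the fold threshold 8 of the 13 were lower, beside 7.8% of all genes. The sums were 38571 to 46329 CPM in INSL3-KI, 56071 to 64224 in INSL3-KO and 32340 to 40762 in WT. The list's median of -0.47 turned to 0.27 with the trend removed.

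**Figure D5:**
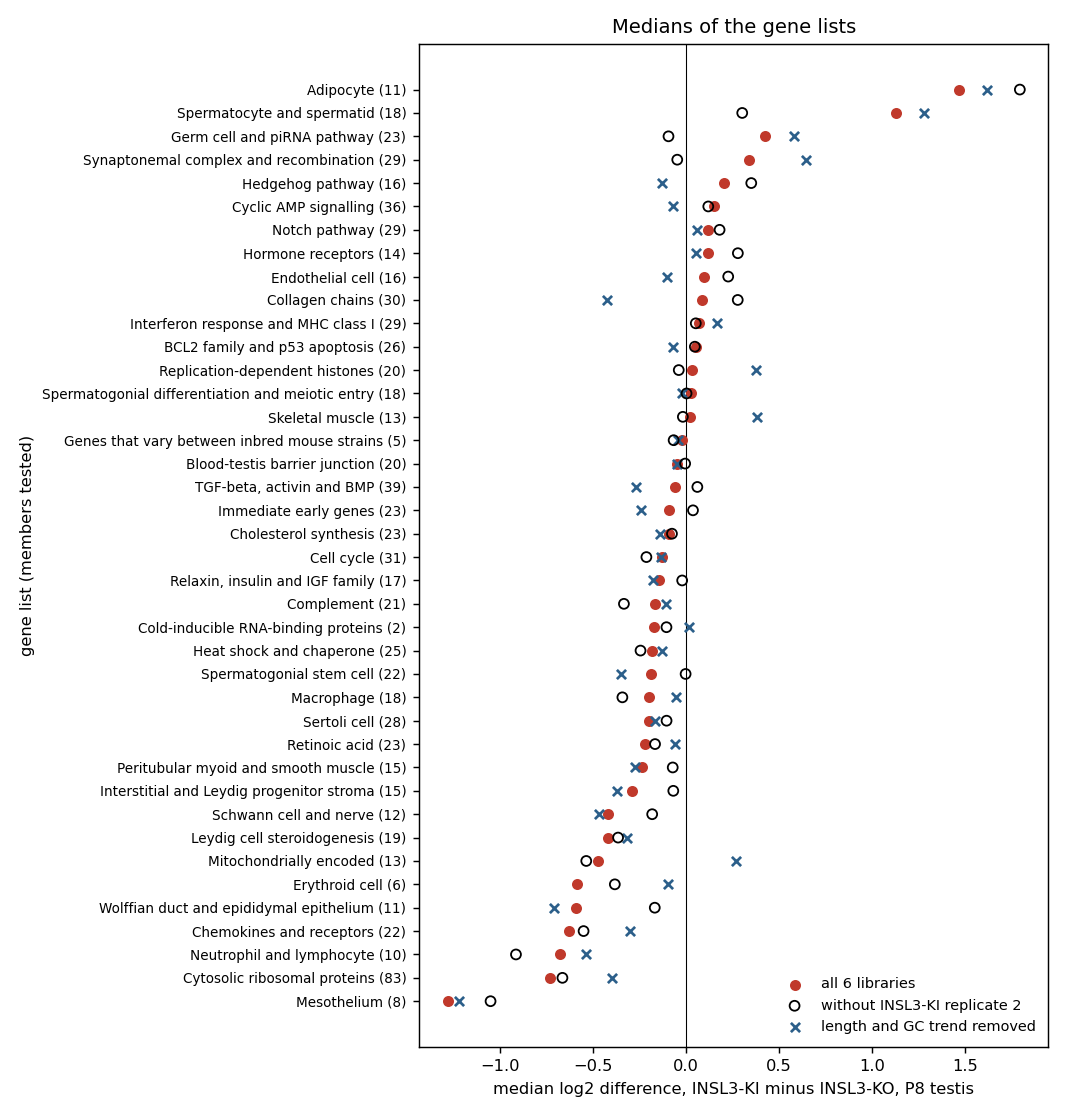
Median log2 difference of INSL3-KI from INSL3-KO (x) for the 40 gene lists (y, with the number of members tested) in all 6 libraries (red), without INSL3-KI replicate 2 (open circles) and with each library's length and GC trend removed (crosses). The ribosomal median moves from -0.73 to -0.40 with the trend removed, the mitochondrial from -0.47 to 0.27, and the spermatocyte and spermatid median from 1.13 to 0.30 without replicate 2.

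Whether the difference between the mutants was the same at both ages was tested as the P8 difference minus the P23 difference, in which an offset of the table that is constant over age cancels. It was lower at P8 for 1997 of 17052 genes (11.7%) and higher for 1328 (7.79%). The sum of 3325 became 5791 without P23 INSL3-KI replicate 3, stayed within 1.5 times without P8 INSL3-KI replicate 2, and was 1321 to 1977 without each other library in turn. Of the genes called at P8, 13 lower and 29 higher were called in that test in the same direction. Insl3 gave -10.26 (adjusted p = 0.00056), with the limit of its near-zero counts at P23 given above. Cyp17a1 did not pass: it was lower in INSL3-KI at P8 by -2.84 and at P23 by -2.41, and the age term was -0.38 (adjusted p = 0.57). Of the 20 Leydig cell genes 8 were called higher in this term and 1, Insl3, lower. In the 8 the P23 difference was the lower one. Hsd17b3, for example, went from -1.15 at P8 to -3.19 at P23, and Lhcgr from 0.92 to -2.02. Of 29 synaptonemal and recombination genes 21 were lower in this term, and of 28 spermatocyte and spermatid genes 14.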

How the data were processed

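Testis and gubernaculum RNA was sequenced by the authors as mRNA libraries (TRIzol extraction, Hieff NGS kit, paired reads of 150 bases on NovaSeq) and mapped with HISAT2 to GRCm38, per the submitters' processing notes. The counter, annotation, strand setting and HISAT2 version are not given in the sources used here. The files deposited hold raw gene counts and, in separate tables, FPKM values, which the authors scaled by transcript length and library size. The 2 count tables list 38822 and 58374 entries, and 939 shared genes carry different symbols. The pair of tables was joined on the Ensembl identifier.

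Differences were tested with edgeR's quasi-likelihood test (edgeR 4.0.16, R 4.3.3) on the 6 libraries, with TMM scaling over the shared genes, filterByExpr (minimum count 10, total 15) and p-values adjusted after Benjamini-Hochberg over every gene tested. P-values measure the spread between libraries labelled as biological replicates. Levels are TMM-scaled CPM over the 9 P8 testis libraries. For the trend removal, a natural spline (5 degrees of freedom each) in the logarithm of the longest transcript and in GC content was fitted to each library and used as an offset. 15725 of 15728 tested genes had both values. Named genes were Insl3, Rxfp2 and Jak3. In each direction they were the 12 called genes of largest fold without the mark of the table and the 4 with it, with groups that did not overlap, at least 10 CPM in the higher group and an ordinary symbol shared by the tables. Of each list, up to 4 called members, or up to 2 of the highest level, could be named, a few of the genes so chosen are not reported here, and other members and genes named in the text were chosen after their values were seen. The members and lists were chosen with earlier results of these data known. Replicate numbers share only a number (see the closing section). Alternatives were DESeq2 1.42.0, limma 3.58.1 on log2(FPKM + 1) and log2(FPKM + 0.1), no filter, library size only, fits of 3 or 8 testis groups, a replicate block, same implied length, trend removal and each library left out. Gene sets were not tested for enrichment. No molecular identifiers are named in the sources used here.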

Additional observations from a re-analysis of the deposited data

Results flagged for a closer look

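The difference between INSL3-KI and INSL3-KO testis was itself tested between the ages, and 3325 genes differed past both thresholds. The values are log2 differences of INSL3-KI from INSL3-KO at P8 minus those at P23, from edgeR's quasi-likelihood test. Among Leydig cell genes they were -10.26 for Insl3, 1.20 for Cyp11a1, 3.98 for Hsd3b6, 2.09 for Hsd17b3, 1.25 for Cyb5a, 1.24 for Tspo, 3.02 for Lhcgr, 1.32 for Nr5a1 and 1.44 for Akr1c14. Rxfp2 gave -6.05 from counts near 0. Germ cell and dividing cell genes were lower in this term, with -2.62 for Tex101, -2.52 for Ddx4, -1.10 for Tex15, -1.88 for Sycp1, -5.00 for Tssk1, -4.95 for Gapdhs and -1.84 for Top2a. Macrophage and immune genes were higher, with 1.34 for Mrc1, 2.04 for Lyz2, 1.61 for Ptprc and 1.58 for B2m. The other genes named in the comparison gave -5.49 for Acta1, -4.80 for Fam221b, -2.85 for Cep85l, 1.00 for Syne3, -2.05 for Nr2c2, -3.15 for Plekhn1, 1.01 for Cidea, 1.5001 for Aldh1a1, 1.22 for Jund, 2.07 for Tm7sf2, -1.20 for Jag2 and -2.09 for Ide. An offset of the table cancels in these values only where it was the same at both ages.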

How the results depend on the processing

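As reported, 183 lower and 434 higher genes were called. Counts stayed within 1.5 times under DESeq2 (259 and 647), no filter, library size only and the fits of 3 or 8 groups. The same held without INSL3-KI replicate 1 or 2. Among the others, limma on log2(FPKM + 1) gave 232 and 228, so that the lower share of calls went from 29.7% to 50.4%, and limma on log2(FPKM + 0.1) gave 294 and 383 (43.4% lower). Genes of the same implied length gave 93 and 187, the length and GC trend removed gave 69 and 183, and both gave 12 and 29. Both without INSL3-KI replicate 2 gave 44 and 98. With no fold threshold 1227 and 1393 passed. Leaving out 1 library gave 62 to 301 lower and 234 to 518 higher genes. The lowest came without INSL3-KO replicate 2, and 77 and 252 without replicate 1, 78 and 241 without replicate 3. Without INSL3-KI replicate 3 they were 301 and 412 (42.2% lower). A replicate block gave 81 and 237. The replicate numbers share only a number, since the deviations of same-numbered libraries correlated at 0.011 to 0.016. Of 61 named genes, Pagr1a reversed to 0.25 under limma, and no other direction turned. Under the block 20 of the 61 lost their call, Cyp17a1 among them (adjusted p = 0.0112), as did 16 under limma on log2(FPKM + 1), 17 without INSL3-KI replicate 1, 18 to 21 without an INSL3-KO library and 5 without INSL3-KI replicate 2 or 3. The age difference of 3325 genes ranged from 1321 to 5791 when 1 library was left out, the highest without P23 INSL3-KI replicate 3, and only without P8 INSL3-KI replicate 2 did it stay within 1.5 times. The 269 genes marked by the P23 check became 89 when all libraries of the tables had to be apart. Alternatives for implied length with trend, the ribosomal list and the table separation were chosen after seeing the data.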
